A study of Mus musculus with 14 samples.

Results

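Described here is the interaction of Foxa2 genotype with day of differentiation, that is, how far the day 0 to day 3 difference in RNA level depended on having Foxa2, by comparing cells that lack it with cells that keep a copy of it. It was taken over 10 of the 14 libraries of the series and 13899 of the 24054 genes in the deposited tables passed the filter on low counts. The contrast was (d3ko minus d0ko) minus (d3con minus d0con) on the log2 scale, so a value of -1 means that the ko change was 2-fold below the control change and 0 means that both genotypes changed equally. The control groups were d0con (n = 2) and d3con (n = 3), of genotype Foxa2-Venus-KO/+, and the knockout groups d0ko (n = 2) and d3ko (n = 3), of genotype Foxa2-Venus-KO/Foxa2-Venus-KO. In this allele the coding region of Foxa2 is replaced by the fluorescent reporter H2B-Venus, with a loxP-flanked neomycin cassette, in IDG3.2 mouse embryonic stem cells. Control cells therefore have a single working Foxa2 copy and no group is wild type. Day 0 cells had spent a day without LIF on red-fluorescent mitomycin-treated embryonic fibroblasts and were sorted as Cherry-negative. Day 3 cells had been moved to feeder cells that secrete Wnt3a, in endoderm differentiation medium with 12 ng/ml Activin A, and were sorted as Venus-positive. Days thus also differ in feeder, medium and sort, which both genotypes share. Each genotype comes from 2 clones (C59 and C63 for control, C9 and C17 for ko), and at day 3 replicates 1 and 3 are the same clone, so p-values measure the spread between these libraries and genotype cannot be told apart from other differences between the clones.

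Foxa2 is a forkhead pioneer transcription factor, able to bind its sites on nucleosomal DNA, and is needed for foregut endoderm, node and notochord in the mouse embryo. Embryonic stem cells given Nodal-like (Activin) and Wnt signals leave the naive pluripotent state, pass through stages that resemble epiblast and primitive streak, and form definitive endoderm marked by Sox17, Foxa2 and Cer1. Pluripotency genes are shut off on the way, while a Wnt-responsive streak program with T and Mixl1 is shared by the mesoderm and endoderm lineages.

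The 10 libraries held 15882612 to 27278237 expected counts, RSEM's estimated reads per gene, summed over genes. Foxa2 itself (chr2:148042877-148046969, GRCm38) checked the labels, with 0.13 and 0.14 TPM in d0con, 0.07 and 0.11 in d0ko, 58.6, 34.8 and 54.5 in d3con and 0.11, 0.15 and 0.19 in d3ko. TPM is RSEM's level scaled for gene length and for the size of the library. The summed level of 6 stem cell markers (Pou5f1, Sox2, Nanog, Zfp42, Esrrb, Klf4) was 2321 to 2464 TPM in d0con and 2410.5 to 2525 in d0ko, but 118 to 587 in d3con and 812 to 1907 in d3ko. The summed level of 6 endoderm markers (Sox17, Gata4, Hhex, Cer1, Hnf4a, Foxa1) was 723 to 920.5 TPM in d3con against 26.3 to 132 in d3ko. The d3ko libraries, labelled endoderm cells, thus held little of the defining endoderm RNA. In bulk RNA, fewer cells of a type and less RNA per cell cannot be told apart. One ko library stood apart from its group: in d3ko replicate 2 (clone C17) Zfp42 was at 40.0 TPM against 309 and 400.1 in the others. Replicate 2 was also the highest day 3 library of both genotypes for the streak gene T, with 11.4, 131 and 15.5 TPM in d3con and 13.7, 212 and 55.7 in d3ko, and d3con replicate 2 kept most Pou5f1, with 63.5, 319 and 59.7 TPM in d3con and 522, 501 and 944 in d3ko. Results are therefore given with all 10 libraries and without d3ko replicate 2. That fit leaves a single clone in d3ko, and the library was chosen after seeing these values. For genes where it lies between d3con and the other d3ko libraries, as with Zfp42, leaving it out favours passing. This fit also shares its other libraries with the main fit and calls more genes in both directions. Passing in it is therefore no independent support for any gene. Among 7 fibroblast markers (Col1a1, Col1a2, Col3a1, Dcn, Lum, Postn, Thy1) the summed level was 11.8 to 14.2 TPM in d0con, 37.4 to 135 in d0ko, 52.7 to 304 in d3con and 117 to 366 in d3ko.

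Few genes were called in opposite directions between the genotypes, and fewer genes passed in ko than in control cells. Between the days 2863 genes rose (20.6%) and 2027 fell (14.6%) in control cells, and in ko cells 1613 rose (11.6%) and 795 fell (5.72%), calling genes at an edgeR adjusted p under 0.05 where the log2 fold change was beyond 1 in size. Of these, 1435 rose and 635 fell in both genotypes, 5 rose in control and fell in ko cells, and 0 did the reverse. Across the 13899 genes, which are not independent replicates, the control and ko changes correlated with a Pearson r of 0.795 and a Spearman coefficient of 0.815; they share no library. The interaction, in edgeR's quasi-likelihood fit of the 10 libraries, passed the same thresholds for 0 genes (0%). At an unadjusted p under 0.05, 943 genes had an interaction above 0 (6.78%) and 897 one below 0 (6.45%), with 572 above and 1047 below by limma on log2(TPM + 1). DESeq2 on the same contrast called 299 genes above 1 (2.15%) and 266 below -1 (1.92%), limma-voom 0 in either direction, and limma on log2(TPM + 1) 0 above and 12 below. Without d3ko replicate 2, edgeR called 670 genes above 1 (4.85%) and 448 below -1 (3.25%) among 13802, and with replicate 2 left out in both d3con and d3ko, which leaves clone C59 against clone C9 at day 3, 942 (6.88%) and 686 (5.01%) among 13689. For 4873 genes (35.1%) the 95% interval of the interaction lay inside -1 to 1, so the response differed by less than 2-fold between the genotypes, against 34.3% of genes without d3ko replicate 2 and 34.1% without both replicates 2. For genes in neither set the data leave both readings possible, and the median standard error of the interaction was 0.402. Medians over gene lists are given below as descriptions. Counts of list members are to be read against the shares of all genes given above. These are 6.78% above 0 and 6.45% below 0 at an unadjusted p under 0.05. Without d3ko replicate 2, 4.85% passed above 1 and 3.25% below -1. Of the 24 lists with a median smaller than 0.5 in size, 23 had a median that turned sign or moved by over 1.5 times when 1 library was left out, ribosome biogenesis being the exception. The same held for 12 of the 19 lists with a larger median.

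**Figure D1:**
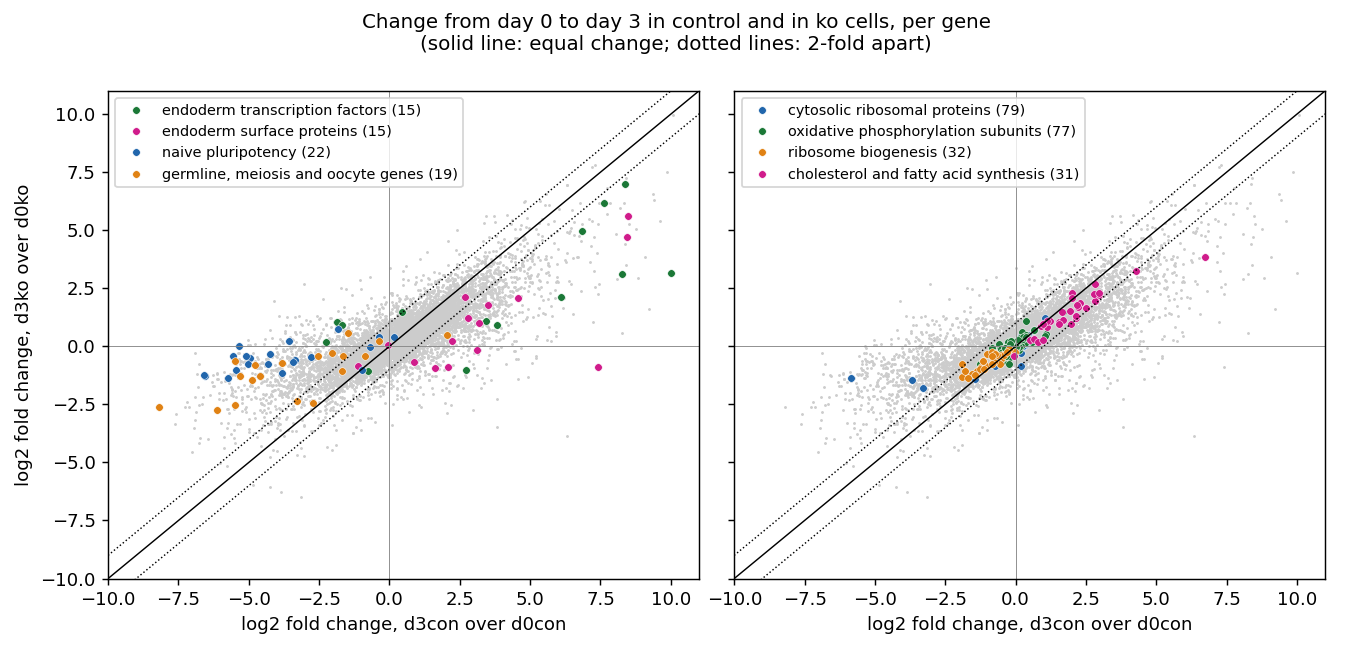
Log2 fold change of day 3 over day 0, control on the horizontal and ko on the vertical axis, 1 point per gene tested, with 4 gene lists coloured in each panel and grey for the rest (genes with 3 or fewer reads in a group are not drawn). On the left most endoderm genes lie below the line of equal change and most naive pluripotency and germline genes above it, while ribosomal protein, oxidative phosphorylation and ribosome biogenesis genes on the right lie mostly between the dotted lines that mark a 2-fold difference.

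Among genes that reached a group mean of 5 TPM, the 12 with the smallest p and an interaction below -1 rose in control cells, and rose by less or did not pass in ko cells. Krt7 (chr15:101412403-101427806), a keratin of simple epithelia, had 4.63 and 6.78 TPM in d0con, 6.62 and 10.3 in d0ko, 74.4, 66.7 and 77.3 in d3con and 6.02, 3.22 and 5.5 in d3ko. All 3 d3con libraries were above, and all 3 d3ko libraries below, the mean of their day 0 libraries. Its interaction was -4.41 (SE 0.45, 95% interval -5.44 to -3.39, edgeR adjusted p = 0.0509), against -7.68 (SE 0.87, 95% interval -9.63 to -5.73, edgeR adjusted p = 0.0544) for Foxa2 itself, and both passed without d3ko replicate 2, at -4.18 (SE 0.36) and -7.64 (SE 1.03). Mmp15 (chr8:95352296-95374293), a membrane-anchored matrix metalloproteinase, had 2.13 and 2.62 TPM in d0con, 2.83 and 2.25 in d0ko, 34.9, 26.4 and 30.7 in d3con and 4.33, 6.14 and 4.93 in d3ko. It rose in control cells (log2 fold change 3.49), while its ko change of 0.84 did not pass, and its interaction was -2.65 (SE 0.33, 95% interval -3.40 to -1.91, edgeR adjusted p = 0.0805). Gdpd5, a glycerophosphodiester phosphodiesterase, and Col9a3, a collagen IX chain, rose in both genotypes but by less in ko cells, by 6.45 against 2.68 and by 5.31 against 1.63. Shroom3 (chr5:92683435-92965759), an actin-binding protein of apical constriction, had 42.3, 44.4 and 42.3 TPM in d3con and 5.83, 13.4 and 9.75 in d3ko, with an interaction of -2.60 (95% interval -3.46 to -1.75). Hdac6 (chrX:7930116-7948047), a cytoplasmic deacetylase of tubulin, had 89.6 and 96.2 TPM in d0con, 114 and 130.3 in d0ko, 208, 171 and 283 in d3con and 58, 79.9 and 75.7 in d3ko. The d3ko libraries were thus below both day 0 groups, and the Hdac6 interaction was -1.99 (SE 0.29, 95% interval -2.64 to -1.34, edgeR adjusted p = 0.1). The interactions of Fam210b, Plekhg3 (a guanine nucleotide exchange factor) and Ctxn1 (a small membrane protein) were -2.28, -1.81 and -1.64, and the genes in this paragraph passed without d3ko replicate 2, with values from -7.64 to -1.60.

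The remaining pair of the 12 genes, Foxa1 and Eya2, had 3 or fewer reads in a group, so no fold is given for them. Foxa1 (chr12:57540628-57548029), the closest relative of Foxa2 among forkhead factors, had 0.03 and 0 TPM in d0con, 0.04 and 0.2 in d0ko, 28, 7.72 and 21.1 in d3con and 0.07, 0.13 and 0.11 in d3ko. Eya2 (chr2:165595028-165771727), a transcriptional coactivator and phosphatase, had 0.07 and 0 TPM in d0con, 0.09 and 0.24 in d0ko, 18.1, 7.76 and 14.6 in d3con and 0.15, 0.21 and 0.21 in d3ko. All d3con libraries were thus far above day 0 and all d3ko libraries were at the day 0 level. The core letters of a forkhead site, TGTTTAC or TATTTAC on either strand, were looked up in the RefSeq promoters (GRCm38.p6, 250 bases before to 50 after the transcription start) of the 24 genes with the smallest interaction p, of which 18 had one. That of Foxa1, 1 of the 18 genes, held them, against 7.35% of the 27025 genes with a promoter entry. The match lies 141 to 135 bases before the Foxa1 start that the RefSeq promoter entry uses, on the minus strand of chromosome 12 (chr12:57546236-57546262). That start lies inside the outer bounds of the gene given above, which reach further upstream. The window is shown with 10 bases on each side because Foxa1 is the one Foxa gene besides Foxa2 among them. Capitals mark the matched letters, which read GTAAACA along the gene, the reverse complement of TGTTTAC. A match is a run of letters, not a measured binding site, and no match says only that these letters are not in the window.
Foxa1 promoter: atactgctttGTAAACAaagtgagggc

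The 12 genes with the smallest p and an interaction above 1 fell in control cells, with stem cell and germline genes among them, and fell by less or did not pass in ko cells. Dnmt3l (chr10:78042287-78063622), the cofactor of the de novo DNA methyltransferases, had 752 and 691 TPM in d0con, 732 and 685 in d0ko, 9.35, 6.16 and 4.98 in d3con and 208, 49.5 and 270.4 in d3ko. It fell in both genotypes, by 6.92 and by 2.17 on the log2 scale, and its interaction was 4.75 (SE 0.85, 95% interval 2.84 to 6.66, edgeR adjusted p = 0.129). Esrrb (chr12:86361117-86521628), an orphan nuclear receptor of the naive pluripotency network, had 59.1 and 54.8 TPM in d0con, 57.4 and 58.8 in d0ko, 1.92, 2.09 and 1.69 in d3con and 50.02, 10.5 and 85.4 in d3ko. Replicates 1 and 3 of d3ko were at or near the day 0 level and replicate 2 lay between them and d3con. The Esrrb interaction was 4.69 (SE 0.93, 95% interval 2.61 to 6.78, edgeR adjusted p = 0.129). Gm7325, which encodes the muscle fusion peptide myomixer, had 2.76, 1.62 and 1.24 TPM in d3con and 79.6, 16.9 and 128 in d3ko, and Rbmxl2, an RNA-binding retrogene of the testis, had 2.66, 2.16 and 1.16 TPM in d3con and 43.5, 9.73 and 58.9 in d3ko. In both genes d3ko replicate 2 was again the lowest ko library. Pla2g1b (a secreted phospholipase A2), Amhr2 (the receptor of anti-Müllerian hormone) and 1700097N02Rik fell in control cells by 3.53, 2.48 and 4.23 on the log2 scale, with ko changes of -0.08, 0.44 and 0.69 that did not pass. Cabp1 (a calcium-binding protein) went from 8.6 to 2.07 TPM in control and from 6.97 to 15.1 in ko cells on average. For Ptrf, a coat protein of caveolae, the interaction was 1.79 (95% interval 1.06 to 2.52), and for the homeobox gene Nkx6-2 it was 4.81 (95% interval 2.68 to 6.95). The synaptonemal complex gene Syce1 and the piRNA helicase gene Mov10l1 had 0.12, 0 and 0.11 TPM in d3con and 5.56, 1.43 and 7.52 in d3ko, and 0, 0.05 and 0 TPM in d3con and 1.83, 0.51 and 2.44 in d3ko, and Mov10l1 had 3 or fewer reads in a group. The 12 genes passed without d3ko replicate 2.

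**Figure D2:**
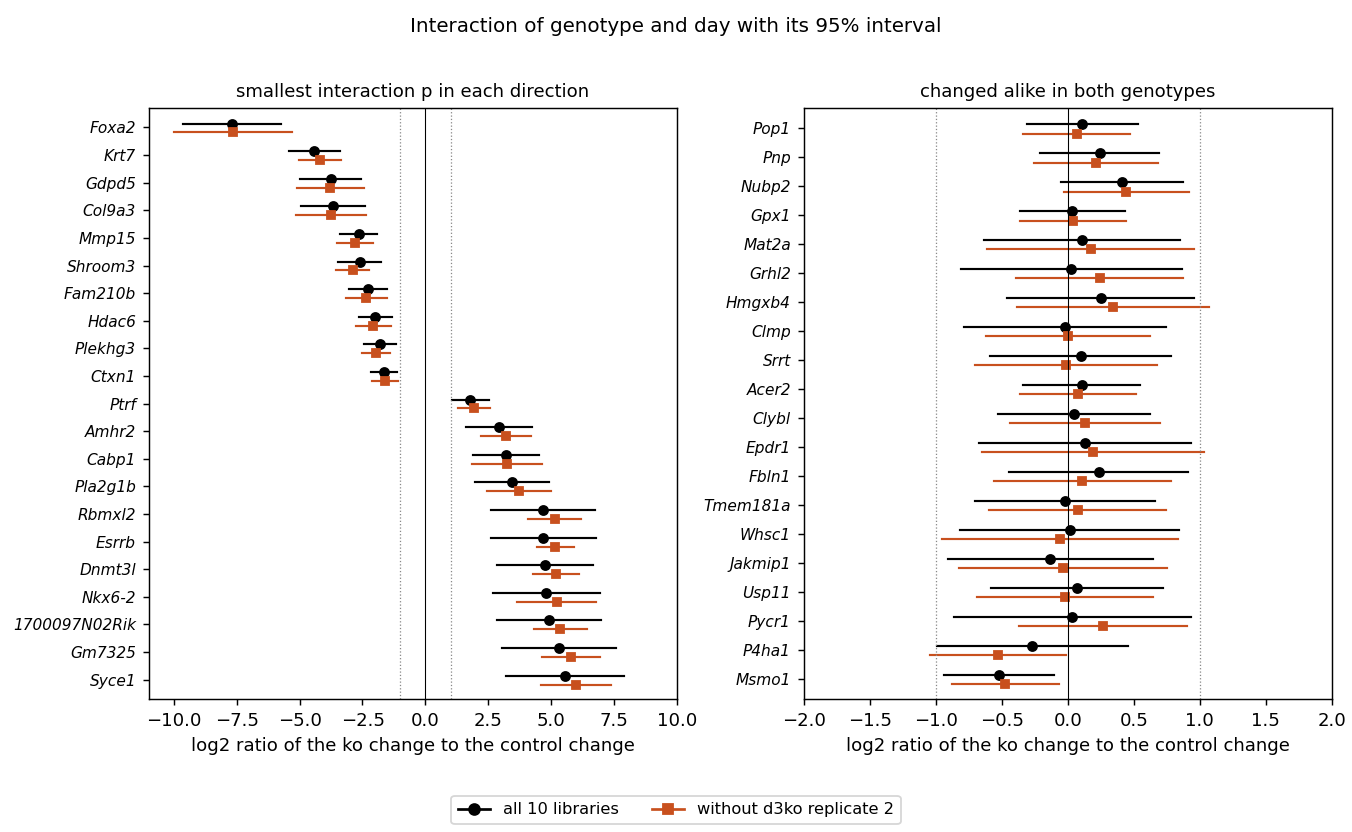
Interaction of genotype and day (log2, ko change relative to control change) with its 95% interval, for the genes of smallest interaction p in each direction (left, 21 genes, without those that had 3 or fewer reads in a group) and for genes that changed alike in both genotypes (right, 20 genes), with all 10 libraries (circles) and without d3ko replicate 2 (squares). Dotted lines mark a 2-fold difference: intervals on the left, of genes chosen by smallest p, lie outside them. With all 10 libraries those on the right lie inside, which was a condition of their choice.

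Endoderm transcription factors rose in control cells, and part of that rise was missing in ko cells. Of 17 of the 19 listed genes tested, 12 rose and 1 fell in control cells against 6 and 1 in ko cells, and the median interaction was -1.86 over the list and 0.00 over all genes tested. An unadjusted p under 0.05 was found for 7 below 0 and 2 above 0, and 5 and 2 passed without d3ko replicate 2. Sox17 (chr1:4490928-4497426), the HMG-box factor that defines definitive endoderm, had 0.09 and 0.09 TPM in d0con, 0.24 and 0.02 in d0ko, 131, 62.4 and 109.8 in d3con and 2.1, 1.25 and 0.76 in d3ko. Every d3ko library was above day 0 and well under the lowest d3con library, and the interaction was -6.87 (SE 1.36, 95% interval -9.94 to -3.80, edgeR adjusted p = 0.129). Prdm1, a transcriptional repressor, had 4.53 and 5.26 TPM in d0con, 4.24 and 4.76 in d0ko, 20.5, 22.8 and 26 in d3con and 7.38, 5.93 and 7.73 in d3ko, with an interaction of -1.55 (SE 0.25, 95% interval -2.11 to -0.99, edgeR adjusted p = 0.105). Gata4, a zinc finger factor of endoderm and heart, rose in both genotypes, by 6.83 and 4.97, and had 142, 75.9 and 153 TPM in d3con and 46.2, 69 and 13.8 in d3ko. Its interaction of -1.86 (95% interval -3.81 to 0.09) did not pass, with or without d3ko replicate 2. The homeobox factor Hhex rose in control cells (by 3.42) and had 65.4, 31.6 and 70.9 TPM in d3con and 13.9, 5.64 and 9.16 in d3ko, and Hnf4a, a nuclear receptor of liver and gut, had 9.91, 1.62 and 9.01 TPM in d3con and 0.48, 0 and 0.55 in d3ko. The opposite direction was found for Klf5, a Krüppel-like factor also used in stem cells, which fell in control cells to 90.9 ± 27.3 TPM (SD, n = 3) and was at 329 ± 252 in d3ko (n = 3), a pair of groups whose library changes overlapped.

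**Figure D3:**
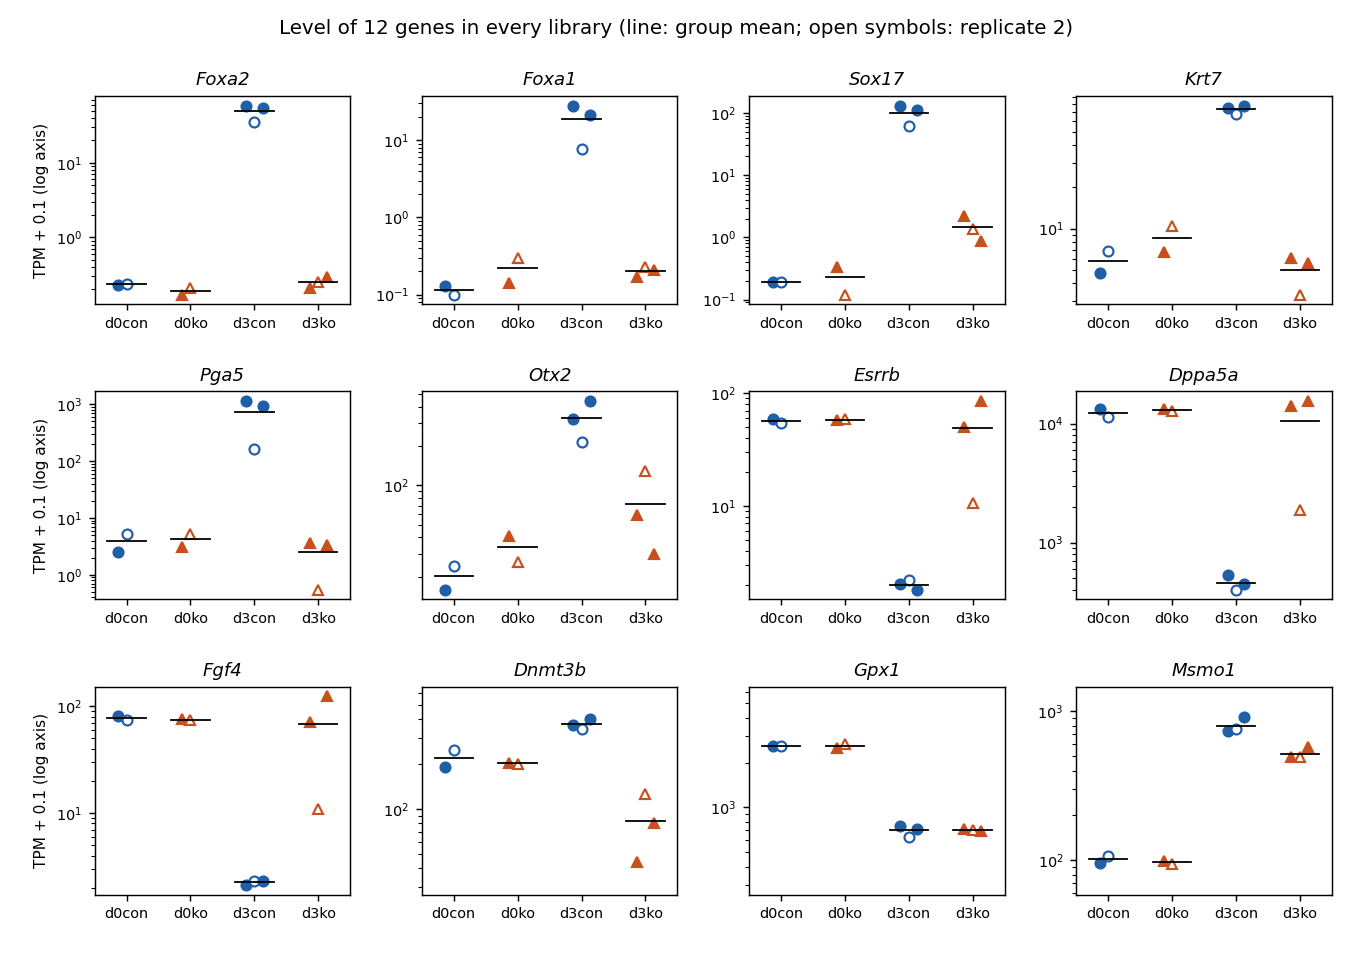
TPM (plus 0.1, log axis) of 12 named genes in every library of the 4 groups, with the group mean as a line and replicate 2 as an open symbol. In the first 6 panels d3con lies above the other groups, in Esrrb, Dppa5a and Fgf4 d3con falls and d3ko replicate 2 lies below the other d3ko libraries, Dnmt3b moves in opposite directions, and in Gpx1 and Msmo1 both genotypes move together.

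Surface and secreted proteins of the endoderm had a like pattern. Of 15 tested (16 listed), 12 rose in control cells and 5 in ko cells, the median interaction was -2.18, and 9 were below 0 at an unadjusted p under 0.05 with 0 above (6 and 0 passed without d3ko replicate 2). Pga5 (chr19:10668957-10678071), a pepsinogen, had 2.45 and 5.18 TPM in d0con, 2.94 and 5.21 in d0ko, 1145, 164 and 924 in d3con and 3.51, 0.44 and 3.23 in d3ko. No d3ko library reached the lowest d3con library, replicate 2, and the interaction was -8.32 (SE 1.35, 95% interval -11.36 to -5.29, edgeR adjusted p = 0.105). Cldn6 (chr17:23679348-23682446), a tight junction claudin of early epithelia, had 101 and 143 TPM in d0con, 132 and 141 in d0ko, 732, 353 and 689.6 in d3con and 61, 73.2 and 118 in d3ko. Trh, the precursor of thyrotropin-releasing hormone, had 618 and 1583 TPM in d0con, 1630.1 and 1211 in d0ko, 4242, 3012 and 4403 in d3con and 718, 625 and 1199 in d3ko. In both genes all d3con libraries lay above d0con and all d3ko libraries below d0ko, and the interactions were -2.95 (SE 0.52, 95% interval -4.12 to -1.78, edgeR adjusted p = 0.126) and -2.53 (SE 0.59, 95% interval -3.85 to -1.21, edgeR adjusted p = 0.153). By contrast Epcam, an adhesion protein of stem cells and epithelia, changed by -0.06 in control and 0.04 in ko cells, and its interval of -0.78 to 0.98 lay inside a 2-fold difference.

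Keratins, claudins and tight junction genes, which build a sealed epithelium, had interactions mostly below 0. In control cells 11 of 20 tested (24 listed) rose and 3 fell, in ko cells 2 and 2. Interactions below 0 at an unadjusted p under 0.05 numbered 9, those above 0 1, and the median was -0.80 (6 and 1 passed without d3ko replicate 2). Krt18 (chr15:102028216-102032026), partner of Krt8 in simple epithelia, had 38.7 and 59.8 TPM in d0con, 62 and 95.5 in d0ko, 1298, 671 and 1223 in d3con and 180.1, 180.4 and 53.6 in d3ko. The ko change of 0.64 did not pass and the interaction was -3.59 (SE 0.73, 95% interval -5.24 to -1.95, edgeR adjusted p = 0.141). Krt42 went the other way, from 134 to 0.753 TPM in control and from 125 to 13.9 in ko cells (interaction 4.32 with SE 1.17). Among cadherins and regulators of the epithelial-mesenchymal transition, 9 of 21 tested rose in control and 7 in ko cells, with a median interaction of -0.20 and 0 calls in either direction without d3ko replicate 2. Cdh1 (E-cadherin) had 347 and 316 TPM in d0con, 354 and 356 in d0ko, 455, 483 and 598 in d3con and 214, 217 and 371 in d3ko, an interaction of -0.99 (SE 0.32, 95% interval -1.72 to -0.26, edgeR adjusted p = 0.247). The epithelial factors Ovol2 (a zinc finger repressor) and Esrp1 (a splicing regulator) had interactions of -2.73 (SE 0.76) and -1.01 (SE 0.30), while fibronectin, Fn1, rose in ko cells, to 443 ± 124 against 144 ± 71.3 TPM in d3con (SD, n = 3 each) where the change did not pass, with an interaction of 1.36 (95% interval 0.19 to 2.52). Grhl2, a regulator of epithelial genes, fell by 2.06 and 2.03 with an interaction of 0.03 (95% interval -0.81 to 0.87).

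Secreted antagonists of the organizer and members of the Nodal pathway pattern the anterior endoderm and mesoderm. All 26 were tested. In control cells 17 rose and 2 fell, in ko cells 7 and 1, and the median interaction was -0.71, with 8 below 0 and 2 above 0 at an unadjusted p under 0.05 (6 and 2 passed without d3ko replicate 2). Lefty2 (chr1:180893108-180899107), a Nodal antagonist induced by Nodal itself, had 196 and 244 TPM in d0con, 258 and 181 in d0ko, 877, 511 and 1302 in d3con and 172, 210.3 and 204 in d3ko. It rose in control cells (log2 fold change 1.81), its ko change of -0.34 did not pass, and the interaction was -2.16 (SE 0.47, 95% interval -3.21 to -1.10, edgeR adjusted p = 0.153). Shisa2, which retains Wnt and Fgf receptors inside the cell, had 78.9, 30.4 and 71.1 TPM in d3con and 2.96, 4.99 and 2.75 in d3ko, and Sfrp1, a secreted Wnt antagonist, 201, 71 and 220.1 TPM in d3con and 25, 21.3 and 23.2 in d3ko. Cer1, an antagonist of Nodal, Bmp and Wnt, was at 0 TPM in both d0con libraries, so no interaction is given; it had 545, 544 and 548 TPM in d3con and 1.22, 56.4 and 1.87 in d3ko, highest in replicate 2 among the ko libraries. Gdf3, a Nodal-like ligand of stem cells, and Smad7, an inhibitor of the pathway, moved the other way, with interactions of 3.40 (SE 0.93) and 1.66 (SE 0.54), whereas Smad2, the transducer of Nodal signals, had an interval of -0.81 to 0.18. Among 13 node and notochord genes tested (14 listed) the median interaction was -0.67 and 9 rose in control against 4 in ko cells. With 1 library left out that median ran from -1.17 without d3ko replicate 2 to -0.31 without d3con replicate 2. Chrd, a Bmp antagonist of the node, had 9.09, 20.1 and 6.9 TPM in d3con and 0.4, 2.19 and 1.02 in d3ko. The d3ko libraries were below the d3con libraries, but the interaction of -3.17 (95% interval -5.67 to -0.67) passed in neither fit.

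Wnt genes had interactions on both sides of 0. The list of ligands and receptors had 10 rising genes in control and 10 in ko cells among 24 tested (31 listed), and its median interaction of 0.34 turned to -0.31 without d3ko replicate 2. Among the receptors, Fzd8 had 0.94 and 0.55 TPM in d0con, 0.44 and 0.63 in d0ko, 27.5, 21.8 and 25.9 in d3con and 0.95, 2.42 and 0.8 in d3ko, and Fzd6 had 2.27 and 2.47 TPM in d0con, 2.39 and 1.51 in d0ko, 11.4, 11.8 and 13.5 in d3con and 3.74, 3.91 and 3.32 in d3ko. Both rose in control cells, did not pass in ko cells, and had interactions of -3.68 (SE 0.68, 95% interval -5.22 to -2.15, edgeR adjusted p = 0.129) and -1.43 (SE 0.35, 95% interval -2.21 to -0.65, edgeR adjusted p = 0.162). Wnt11, a ligand of non-canonical signalling, had 39.6, 18.2 and 43.3 TPM in d3con and 3.16, 2.69 and 2.82 in d3ko, and rose in both genotypes (by 5.4 and 2.16) with an interaction of -3.24 (95% interval -4.46 to -2.02); it passed without d3ko replicate 2, as both receptors did. The co-receptor Lrp5 rose alike, by 1.0 and 1.42, though its interval (-0.26 to 1.10) reached past a 2-fold difference. Of 18 Wnt targets and feedback genes tested (21 listed), 7 rose in control and 7 in ko cells, 3 had an interaction above 0 and 3 below 0 at an unadjusted p under 0.05, and the median was 0.36 (0.00 without d3ko replicate 2). Tcf7l2 (chr19:55741797-55933659), a DNA-binding partner of beta-catenin, had 7.35 and 6.34 TPM in d0con, 5.47 and 7.86 in d0ko, 82.8, 44.1 and 103 in d3con and 7.73, 14.1 and 5.08 in d3ko, with an interaction of -3.02 (SE 0.63, 95% interval -4.44 to -1.60, edgeR adjusted p = 0.153). Dkk1, a secreted Wnt inhibitor, had 385, 44.5 and 313 TPM in d3con and 14.4, 9.06 and 2.84 in d3ko. Other members had interactions above 0. The posterior homeobox gene Cdx1 had 8.52 and 6.58 TPM in d0con, 7.0 and 3.32 in d0ko, 0.2, 1.15 and 0.18 in d3con and 15.4, 3.68 and 48.5 in d3ko. Notum, an extracellular inactivator of Wnt ligands, had 0.72, 0.14 and 0.52 TPM in d3con and 4.41, 0.56 and 6.15 in d3ko, and Lef1, another partner of beta-catenin, had 8.28, 27.1 and 12.7 TPM in d3con and 25, 62 and 34.7 in d3ko. Their interactions were 6.07 (SE 1.5), 3.62 (SE 1.15) and 1.82 (SE 0.69), and Cdx1 and Notum passed without d3ko replicate 2. A further partner, Tcf7, changed by 0.76 and 0.76 (interval -0.80 to 0.81).

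**Figure D4:**
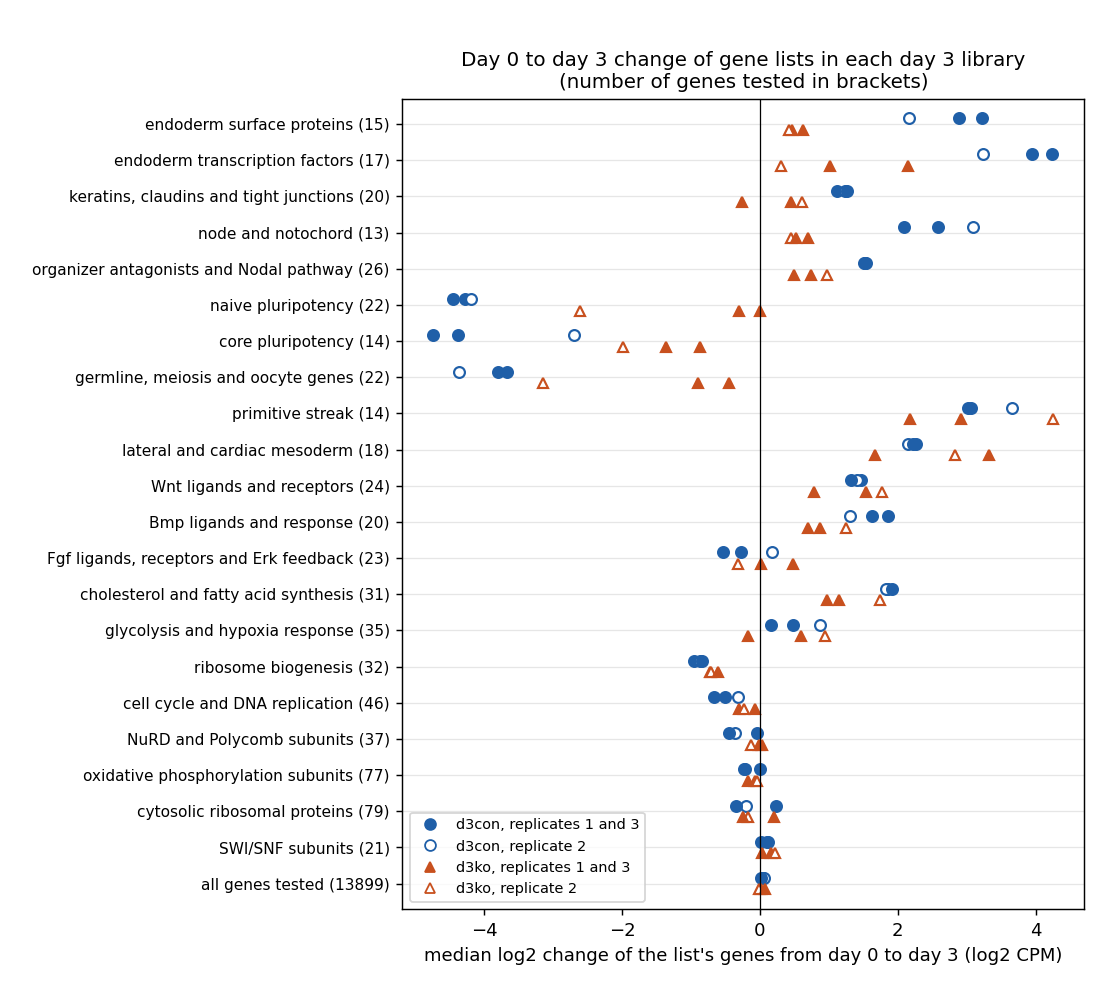
Median log2 change (log2 CPM of a day 3 library less the mean of the day 0 libraries of its genotype) over the tested genes of 21 lists and of all genes tested, 1 symbol per day 3 library, with replicate 2 open. The naive pluripotency list is at -4.28, -4.19 and -4.45 in the d3con libraries and -0.30, -2.61 and 0.00 in the d3ko libraries, replicates 1 to 3, while the lists from ribosome biogenesis downwards lie close together.

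Naive pluripotency genes, which hold embryonic stem cells in their ground state, had the largest median interaction of the 43 lists. Of 22 listed and tested, 18 fell in control cells and 1 in ko cells, the median interaction was 3.67, and 19 had an interaction above 0 at an unadjusted p under 0.05 with 0 below, against 6.78% above 0 over all genes. Their median change was -4.28, -4.19 and -4.45 in the 3 d3con libraries and -0.30, -2.61 and 0.00 in d3ko replicates 1 to 3, so that replicate 2 lay between the d3con libraries and the others. Dppa5a (chr9:78367052-78368199), an RNA-binding protein of stem cells, had 13306 and 11377 TPM in d0con, 13309.9 and 12796 in d0ko, 536, 399.9 and 445 in d3con and 14200.1, 1866 and 15543 in d3ko. Tfcp2l1, a transcription factor of the naive network, had 52.9 and 54.7 TPM in d0con, 60.5 and 55.7 in d0ko, 3.9, 2.68 and 3.1 in d3con and 69.7, 11.8 and 70.6 in d3ko. For both genes d3ko replicates 1 and 3 lay within the range of the day 0 libraries or above it, and the interactions were 4.47 (SE 0.96, 95% interval 2.30 to 6.64, edgeR adjusted p = 0.153) and 3.90 (SE 0.87, 95% interval 1.95 to 5.85, edgeR adjusted p = 0.153). Without d3ko replicate 2, 17 of the 22 passed, Dppa5a at 4.97 (SE 0.24), Zfp42 at 4.90 (SE 0.21) and Klf4 at 4.30 (SE 0.52). That library was left out for its low level of such genes, which favours these calls and small errors. Stat3, the transducer of LIF signals, changed little in both genotypes (0.17 and 0.41, interval -0.23 to 0.73).

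Core pluripotency factors were less uniform. In control cells 10 of 14 fell and in ko cells 7, the median interaction was 2.04, and 8 were above 0 and 1 below 0 at an unadjusted p under 0.05 (6 and 1 passed without d3ko replicate 2). Pou5f1 (Oct4), the central POU factor, fell in control cells (by 3.53) and had 63.5, 319 and 59.7 TPM in d3con and 522, 501 and 944 in d3ko, an interaction of 2.27 (SE 0.93, 95% interval 0.18 to 4.36, edgeR adjusted p = 0.332), which passed without replicate 2 in both genotypes (3.68) and not without that of d3ko alone (2.44). Sox2, its partner, had 4.99, 7.42 and 2.71 TPM in d3con and 89.3, 14.7 and 86.1 in d3ko (interaction 3.74 with SE 0.94). Nanog had 40.2, 246 and 42.5 TPM in d3con and 254, 240.1 and 345 in d3ko (interaction 1.10 with SE 0.94), and its library changes overlapped. Fgf4, the ligand through which stem cells start differentiation, had 81.6 and 74.9 TPM in d0con, 76 and 73.9 in d0ko, 2.01, 2.22 and 2.19 in d3con and 71, 10.8 and 124 in d3ko, and Dppa4, a chromatin protein, 6.02, 4.08 and 4.06 TPM in d3con and 106, 17.6 and 157 in d3ko. Fgf4 and Dppa4 had interactions of 5.11 (SE 1.05) and 4.35 (SE 0.97). Sall4, a zinc finger repressor, had 243 and 234 TPM in d0con, 306 and 231 in d0ko, 289, 316 and 395 in d3con and 122, 195 and 136 in d3ko. It did not pass in control cells (0.25), fell in ko cells (by 1.02) and had an interaction of -1.27 (SE 0.30, 95% interval -1.94 to -0.60, edgeR adjusted p = 0.156). Zscan10 and Trim28 (a corepressor of zinc finger proteins) fell alike, by 1.75 and 1.53, and by 1.65 and 1.41, with intervals inside -1 to 1. Of the 14 formative epiblast and early neural genes tested (17 listed), 3 were above 0 and 2 below 0 at an unadjusted p under 0.05, with a median of 0.45 (-0.04 without d3ko replicate 2). Otx2 (chr14:48656781-48667644), a homeobox factor of epiblast and anterior endoderm, had 15.8 and 24.3 TPM in d0con, 41.1 and 26 in d0ko, 323, 216 and 444 in d3con and 59.1, 129 and 29.9 in d3ko, with the ko change not passing and an interaction of -2.90 (SE 0.77, 95% interval -4.63 to -1.16, edgeR adjusted p = 0.178). Foxd3, a forkhead factor of the epiblast, had 3.44 (SE 0.97), and Sox11 rose in both genotypes, by 1.43 and 1.81.

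Germline, meiosis and oocyte genes, many of them silenced by DNA methylation in somatic cells, had interactions mostly above 0. Among 22 tested (32 listed), 18 fell and 1 rose in control cells, 7 fell and 0 rose in ko cells, 14 had an interaction above 0 and 1 below 0 at an unadjusted p under 0.05, and the median was 3.03, or 1.24 by limma on log2(TPM + 1). Without d3ko replicate 2, 14 and 1 passed. Ooep, a component of the oocyte's subcortical complex, had 161 and 119.9 TPM in d0con, 181 and 119.7 in d0ko, 4.23, 2.98 and 3.67 in d3con and 142, 17.2 and 172 in d3ko, and Dazl, a germ cell RNA-binding protein, had 4.4 and 3.75 TPM in d0con, 5.67 and 6.65 in d0ko, 0.12, 0.19 and 0.19 in d3con and 4.94, 0.8 and 6.01 in d3ko. In both, d3ko replicate 2 was the lowest ko library and still above all d3con libraries, and the interactions were 4.86 (SE 1.07, 95% interval 2.46 to 7.27, edgeR adjusted p = 0.153) and 3.99 (SE 0.99, 95% interval 1.75 to 6.23, edgeR adjusted p = 0.17). The single member below 0 was Prdm1, given above. Of 16 genes of DNA methylation and demethylation, 3 had an interaction above 0 and 1 below 0 at an unadjusted p under 0.05, 4 had an interval inside -1 to 1 (25%, against 35.1% of all genes), and the median was 0.25. Dnmt3b (chr2:153649411-153687730), a de novo DNA methyltransferase, had 190.2 and 247 TPM in d0con, 204 and 201 in d0ko, 364, 343 and 400.4 in d3con and 43.6, 125 and 80.3 in d3ko. All d3con libraries were above d0con and all d3ko libraries below d0ko, with an interaction of -2.02 (SE 0.47, 95% interval -3.09 to -0.95, edgeR adjusted p = 0.156). The demethylating dioxygenases Tet1 and Tet2 fell in control cells (by 2.13 and 2.80) and had interactions of 1.35 (SE 0.37) and 2.32 (SE 0.70). Mbd3, which joins methyl-binding proteins to the NuRD complex, changed by -0.91 in control and -0.90 in ko cells, an interaction of 0.01 (95% interval -0.39 to 0.42). Dnmt3b, Dnmt3l, Tet1 and Tet2 passed without d3ko replicate 2.

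Primitive streak genes rose in both genotypes, and their intervals were too wide to say how far the rise depended on Foxa2. Of 14 tested (15 listed), 9 rose in control and 9 in ko cells, 8 of them in both, and 0 had an unadjusted interaction p under 0.05 in either direction. None of the intervals lay inside -1 to 1, and the median interaction of 0.51 turned to -0.81 without d3ko replicate 2. Mixl1, a homeobox factor of the streak, had 0.19 and 0.38 TPM in d0con, 0.25 and 0.31 in d0ko, 44.1, 60.0 and 52.7 in d3con and 75, 105 and 32.5 in d3ko, and Eomes, a T-box factor upstream of endoderm, had 4.23 and 4.53 TPM in d0con, 4.53 and 3.7 in d0ko, 78.3, 67.3 and 75.8 in d3con and 44.8, 63.2 and 12.1 in d3ko. Both rose in control and ko cells, by 7.29 and 7.8 and by 3.88 and 3.11, with interactions of 0.50 (95% interval -1.43 to 2.44) and -0.77 (95% interval -2.43 to 0.88). T (Brachyury) rose by 7.22 and 7.73 (interaction 0.52, 95% interval -5.22 to 6.25), and Mesp1, a factor of nascent mesoderm, by 4.83 and 6.24 (interaction 1.42, 95% interval -3.20 to 6.03), with the highest level of each genotype in replicate 2. Lateral and cardiac mesoderm genes gave a median interaction of 0.69 (0.41 with genes of 3 or fewer reads in a group set to the bound that a floor of 3 reads gives, and 0.06 without d3ko replicate 2) over 18 tested (20 listed), with 10 rising in control and 9 in ko cells, 2 above 0 at an unadjusted p under 0.05 and 0 below. Kdr, a receptor of blood and vessel progenitors, had 6.23, 9.28 and 5.49 TPM in d3con and 27.4, 35.4 and 4.82 in d3ko and an interaction of 1.44 (95% interval -1.08 to 3.96). Hand1 had 0.68, 8.16 and 4.17 TPM in d3con and 1.53, 24.8 and 4.25 in d3ko. Bmp4 and Tbx3, which this list shares with the stem cell program, were the members above 0. Bmp4 (chr14:46383525-46390669), a ligand that stem cells also make, had 198 and 147 TPM in d0con, 140.0 and 111 in d0ko, 8.3, 9.34 and 4.16 in d3con and 55.1, 18.5 and 49.2 in d3ko, and an interaction of 2.98 (SE 0.67, 95% interval 1.47 to 4.5, edgeR adjusted p = 0.153). Tbx3, a T-box factor of naive cells and of mesoderm, had 21.9 and 13.1 TPM in d0con, 33.5 and 24.2 in d0ko, 6.67, 4.68 and 5.57 in d3con and 63.8, 20.1 and 79.7 in d3ko (interaction 2.58 with SE 0.72), and both passed without d3ko replicate 2.

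Growth factor pathways had members with interactions on both sides of 0. The Fgf and Erk feedback list had a median interaction of 0.38 (0.22 without d0con replicate 1 to 0.61 without d0con replicate 2) and the retinoic acid list one of -0.64 (-1.03 without d3ko replicate 2 to -0.05 without d3con replicate 2). In the Fgf and Erk feedback list 5 rose and 8 fell in control cells and 3 and 3 in ko cells (23 tested of 24). At an unadjusted p under 0.05, 4 were above 0 (17.4%, against 6.78% of all genes) and 0 below 0 (0%, against 6.45%). Without d3ko replicate 2, by contrast, edgeR called 1 above 1 and 2 below -1. Its Erk-induced factor Etv5 had 344 and 379 TPM in d0con, 361 and 366 in d0ko, 28.7, 102 and 35.8 in d3con and 224, 166 and 319 in d3ko, and its ligand Fgf17 had 0.92, 7.51 and 0.86 TPM in d3con and 11.9, 24.7 and 20.6 in d3ko. Their interactions were 2.14 (SE 0.67) and 3.54 (SE 1.13), whereas the receptor Fgfr1 changed by 0.56 and 0.44 (interval -0.62 to 0.37). In the Bmp list (20 tested of 24) 11 rose in control and 9 in ko cells, and the median was -0.50 (-0.80 without d3ko replicate 1 to -0.31 without d3ko replicate 3). Smad1, the Bmp transducer, rose in both genotypes, by 3.51 and 2.34, with -1.16 (95% interval -2.11 to -0.22), and Twsg1, a modulator of Bmp ligands, by 2.51 and 1.57. Id3, a target of Bmp signals, had 185 and 222 TPM in d0con, 288 and 208 in d0ko, 331, 224 and 331 in d3con and 199, 112 and 91 in d3ko and an interaction of -1.40 (95% interval -2.47 to -0.32). The Hedgehog list (13 tested of 16) had a median interaction of -0.06 (-0.47 without d3ko replicate 2 to 0.35 without d3con replicate 2). At an unadjusted p under 0.05, 0 were below 0 and 3 above 0. Among the latter were the target Gli1 and the effector Gli2 (interactions 2.09 with SE 0.64 and 2.33 with SE 0.98). Gli1 had 30.2 and 20.1 TPM in d0con, 16.3 and 23.1 in d0ko, 0.99, 1.72 and 1.41 in d3con and 4.96, 1.87 and 6.37 in d3ko, and fell in both genotypes but less far in ko cells, while the receptor Ptch1 changed by 0.44 and 0.35 (interval -0.83 to 0.66). Of 18 Notch genes tested (22 listed), Hey1, a target gene, had 2.27 and 3.19 TPM in d0con, 2.96 and 3.91 in d0ko, 23.3, 23.4 and 34.1 in d3con and 6.18, 10.6 and 2.2 in d3ko (interaction -2.39 with SE 0.75), Rfng, a glycosyltransferase acting on Notch, had 1.16 (SE 0.48), and Rbpj, the DNA-binding partner of Notch, fell alike by 1.48 and 1.23. Of 15 retinoic acid genes tested (20 listed), the receptor gene Rxra had 1.33 and 1.42 TPM in d0con, 1.8 and 2.15 in d0ko, 7.44, 7.43 and 8.78 in d3con and 2.09, 3.38 and 2.57 in d3ko and an interaction of -2.05 (SE 0.35, 95% interval -2.84 to -1.25, edgeR adjusted p = 0.124), and Rarb had 10.7, 3.85 and 12.9 TPM in d3con and 1.01, 2.06 and 0.26 in d3ko (interaction -3.60 with SE 1.56). Of the 42 Hox and Cdx genes 7 passed the filter.

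Genes of liver plasma proteins and lipoproteins, products of the later endoderm, were partly on in control cells. Of 14 tested (32 listed), 9 rose in control and 2 in ko cells and the median interaction was -1.85 (-0.78 by limma on log2(TPM + 1)), with 3 below 0 and 2 above 0 at an unadjusted p under 0.05. Without d3ko replicate 2, 4 and 2 passed, and with 1 library left out the median ran from -2.56 without d3ko replicate 2 to -1.12 without d3con replicate 1. Spink3, a trypsin inhibitor, had 2.99 and 11.3 TPM in d0con, 10.6 and 18.9 in d0ko, 1289, 70.9 and 631 in d3con and 2.15, 0.54 and 0.88 in d3ko. It rose in control and fell in ko cells, with an interaction of -10.19 (SE 1.73, 95% interval -14.07 to -6.30, edgeR adjusted p = 0.122). Proc, the anticoagulant protein C, was at 24.6, 1.47 and 20.5 TPM in d3con and 0, 0 and 0.04 in d3ko, with 3 or fewer reads in the ko group. Apoa2 and Trf (transferrin), which were on in stem cells, went the other way, with 1.66, 2.76 and 2.83 TPM in d3con and 12.7, 7.07 and 21.8 in d3ko, and 0.18, 0.61 and 0.21 TPM in d3con and 5.03, 1.68 and 12.6 in d3ko, and interactions of 2.75 (SE 0.67) and 3.63 (SE 1.07). Among 21 basement membrane genes tested (25 listed), 4 had an interaction below 0 and 4 above 0 at an unadjusted p under 0.05. The laminin chains Lamb1, Lama5 and Lamb3 rose in control cells, by 2.65, 1.85 and 3.84, and had ko changes of 0.80, 0.44 and -0.13 that did not pass. Lamb1 had 19.8 and 17.3 TPM in d0con, 18.3 and 23.2 in d0ko, 145, 89.2 and 167 in d3con and 38.7, 57 and 26.3 in d3ko and an interaction of -1.85 (SE 0.47, 95% interval -2.90 to -0.79, edgeR adjusted p = 0.173). In contrast Nid2 (nidogen), Hspg2 (perlecan) and Col18a1 fell in control cells, with interactions of 1.21 (SE 0.34), 1.01 (SE 0.39) and 1.83 (SE 0.61). Extracellular proteases and their inhibitors (37 tested of 40) had a median of -0.51. At an unadjusted p under 0.05, 7 were below 0 (18.9%, against 6.45% of all genes) and 1 above 0 (2.70%, against 6.78%). Without d3ko replicate 2, by contrast, edgeR called 2 below -1 and 4 above 1. With 1 library left out the median ran from -0.64 without d3con replicate 2 to -0.08 without d0ko replicate 2. Ctsh (cathepsin H) had 0.44 and 0.18 TPM in d0con, 0.7 and 1.23 in d0ko, 94.2, 19 and 78.8 in d3con and 10.2, 4.3 and 6.66 in d3ko, and Timp3, an inhibitor of metalloproteinases, fell in ko cells (by 2.29) with an interaction of -2.76 (SE 0.48, 95% interval -3.85 to -1.68, edgeR adjusted p = 0.124). Adam9 rose alike, by 1.34 and 1.37.

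Lists of general cell machinery made up the other end of the range, with most intervals inside a 2-fold difference. Of 79 cytosolic ribosomal protein genes 61 had an interval inside -1 to 1, of 77 oxidative phosphorylation subunits tested (81 listed) 64, of 32 ribosome biogenesis factors 27, of 28 endoplasmic reticulum folding genes tested (29 listed) 17 and of 21 SWI/SNF subunits tested (23 listed) 14, against 35.1% of all genes.  Their median interactions were 0.05, 0.09, 0.29, -0.06 and 0.08, and without d3ko replicate 2 the numbers inside were 60, 63, 26, 17 and 13. Few ribosomal protein genes changed with day, as 0 rose and 4 fell in control and 0 and 1 in ko cells. Of the oxidative phosphorylation subunits, 3 rose and 2 fell in control and 2 and 0 in ko cells. In these lists there was thus little response that could depend on Foxa2. The share inside also depends on how narrow the intervals are. Ribosome biogenesis genes fell in part, as 15 genes fell in control and 6 in ko cells and 6 fell in both. Bop1, Nop2 and Nhp2 (factors of rRNA processing and modification) fell by 1.90, 1.70 and 1.54 in control and by 1.30, 1.38 and 1.17 in ko cells. Nhp2 had 943 and 1022 TPM in d0con, 939 and 915 in d0ko, 413, 399 and 362 in d3con and 482, 445 and 465 in d3ko. The d3ko libraries lay just above the d3con libraries. Of the 32 genes, 8 were above 0 at an unadjusted p under 0.05 (25%, against 6.78% of all genes). None were below 0 (0%, against 6.45%), and 0 passed without d3ko replicate 2. Among ribosomal proteins, Rpl30 fell by 1.43 and 1.41 (interaction 0.01, 95% interval -0.50 to 0.53), and the exceptions were Rpl10l, a testis-type copy of Rpl10 with 1.39, 0.67 and 1.37 TPM in d3con and 38.2, 4.05 and 35.1 in d3ko, and Rps27 (interaction -1.04 with SE 0.38), both of which have near-identical copies and are uncertain. Uqcrc2, of respiratory complex III, changed by 0.02 and -0.05 (interval -0.40 to 0.26). The complex I subunits Ndufb5 and Ndufa10 and the complex IV subunit Cox8a had interactions of 0.46 (SE 0.17), 0.41 (SE 0.17) and 0.39 (SE 0.16), all inside a 2-fold difference.

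Cholesterol and fatty acid synthesis had the highest share of genes rising in both genotypes among the 43 lists. Of 31 genes 24 rose in control and 21 in ko cells, with 21 in both and 0 falling. Msmo1 (chr8:64718123-64733578), a sterol methyl oxidase, had 95 and 107 TPM in d0con, 99.2 and 94.1 in d0ko, 739, 756 and 909.7 in d3con and 495, 489.9 and 572 in d3ko. It rose by 2.78 and 2.26, and its interaction was -0.52 (SE 0.19, 95% interval -0.94 to -0.10, edgeR adjusted p = 0.274), inside a 2-fold difference although the d3ko libraries lay below the d3con libraries. The regulators Srebf2 (the transcription factor of the pathway) and Insig1 (which holds its complex in the endoplasmic reticulum) rose by 2.01 and 2.0 in control and by 2.07 and 2.29 in ko cells. Srebf2 had 44.9 and 41.9 TPM in d0con, 37 and 41.3 in d0ko, 213, 181 and 208 in d3con and 229, 207 and 117 in d3ko. The median interaction of the list was -0.49 (-0.75 without d3ko replicate 2), and 7 passed below -1 without d3ko replicate 2. At an unadjusted p under 0.05, 0 were above 0 (0%, against 6.78% of all genes) and 6 below 0 (19.4%, against 6.45%). Those with the smallest p were Ebp, Mvd and Hsd17b7, enzymes of the sterol route (interactions -0.62 with SE 0.20, -0.92 with SE 0.31 and -0.98 with SE 0.33). Glycolysis and the hypoxia response had a median of 0.00 over 35 genes, with 9 rising in control and 8 in ko cells and 9 intervals inside -1 to 1 (25.7%, against 35.1% of all genes). Slc2a3, a glucose transporter, had 487 and 576 TPM in d0con, 621 and 592 in d0ko, 2349.7, 2565 and 3276 in d3con and 763, 1269.8 and 1454 in d3ko (interaction -1.38, SE 0.34, 95% interval -2.14 to -0.62, edgeR adjusted p = 0.162), and Egln1, an oxygen sensor, rose by 3.28 and 1.94. Ldhb, a lactate dehydrogenase subunit, rose in ko cells (by 1.51) with an interaction of 1.28 (SE 0.44), Pfkp and Pdk1 fell in control cells (interactions 1.24 with SE 0.48 and 1.24 with SE 0.49), and P4ha1, a collagen prolyl hydroxylase, rose by 2.44 and 2.17 with an interval inside -1 to 1.

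Over all genes, 154 of the 1435 that rose and 148 of the 635 that fell in both genotypes had an interval inside -1 to 1. These are the genes for which both responses passed and differed by less than 2-fold. Gpx1 (chr9:108339080-108340342), a glutathione peroxidase, had 2575 and 2575 TPM in d0con, 2512 and 2662 in d0ko, 755, 630.5 and 715 in d3con and 716, 705 and 692 in d3ko. It fell by 2.09 in control and 2.05 in ko cells, an interaction of 0.04 (SE 0.18, 95% interval -0.36 to 0.43, edgeR adjusted p = 0.963). Pop1, a subunit of RNase P, had 44.4 and 46.6 TPM in d0con, 47.3 and 48.2 in d0ko, 8.36, 9.3 and 10.3 in d3con and 9.06, 11.1 and 10.7 in d3ko, and Pnp, purine nucleoside phosphorylase, had 177 and 164 TPM in d0con, 152 and 139.6 in d0ko, 38, 31.6 and 35.3 in d3con and 35.2, 36.6 and 32 in d3ko. In the Pop1, Pnp and Gpx1 data d3ko replicate 2 did not stand apart, which choosing genes with an interval inside -1 to 1 favours. The further falling genes were Mat2a (synthesis of S-adenosylmethionine), Grhl2, Clmp (an adhesion protein), Hmgxb4, Srrt (RNA processing), Acer2 (a ceramidase) and Nubp2, with falls of 1.80 to 2.10 in control and 1.69 to 2.03 in ko cells. Rising alike were Clybl, a mitochondrial lyase, with 34.6 and 30.7 TPM in d0con, 34.7 and 29.8 in d0ko, 140.2, 146 and 187 in d3con and 187, 139.5 and 144 in d3ko, and Usp11, a deubiquitinase, with 22.1 and 15.6 TPM in d0con, 16.7 and 13.6 in d0ko, 78.8, 115 and 114 in d3con and 82.9, 95.9 and 73 in d3ko. Pycr1 (proline synthesis), P4ha1, Whsc1 (a histone H3 lysine methyltransferase), Fbln1 (an extracellular matrix protein), Epdr1, Jakmip1 and Tmem181a rose by 2.06 to 2.44 in control and 2.06 to 2.33 in ko cells.

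Chromatin and cell cycle lists had median interactions of 0.07 for NuRD and Polycomb and 0.31 for cell cycle genes. In the NuRD and Polycomb list (37 tested) 7 fell in control and 4 in ko cells, the median was 0.07 and 11 intervals lay inside -1 to 1 (29.7%, against 35.1% of all genes). Eed, a core Polycomb subunit, had 267 and 300.4 TPM in d0con, 282 and 308 in d0ko, 61.6, 70.8 and 69.5 in d3con and 173, 85.5 and 205 in d3ko, fell in both genotypes and had an interaction of 1.18 (95% interval 0.23 to 2.14), with 1.36 (95% interval 0.17 to 2.54) for the chromobox protein Cbx7 and 0.74 (95% interval 0.06 to 1.43) for the Polycomb cofactor Mtf2. Ss18 was the SWI/SNF subunit with an unadjusted p under 0.05 (interaction 0.51, 95% interval 0.00 to 1.01), and Smarcb1, a core subunit, changed by 0.08 and 0.04. Of 46 cell cycle and replication genes tested (47 listed) 8 fell in control and 1 in ko cells, with a median of 0.31. At an unadjusted p under 0.05, 8 were above 0 (17.4%, against 6.78% of all genes) and 0 below 0 (0%, against 6.45%). Ccnd3 (cyclin D3) had 439 and 445 TPM in d0con, 432 and 357 in d0ko, 73.1, 111 and 76.5 in d3con and 169, 202 and 297 in d3ko, an interaction of 1.56 (SE 0.36, 95% interval 0.76 to 2.36, edgeR adjusted p = 0.153). Pole, a DNA polymerase, had 0.57 (SE 0.22) and Pcna, its sliding clamp, 0.34 (95% interval -0.02 to 0.69). Among 25 p53 target genes and regulators, Trp53 itself had 877 and 786 TPM in d0con, 789 and 766 in d0ko, 197, 230.1 and 233 in d3con and 295, 318 and 357 in d3ko and fell in both genotypes, by 2.13 and 1.44, with an interaction of 0.69 (SE 0.17, 95% interval 0.31 to 1.07, edgeR adjusted p = 0.164). Btg2, an antiproliferative target, rose in control cells (interaction -1.78 with SE 0.32), Ak1 fell in both genotypes (interaction 1.17 with SE 0.51), and Pmaip1 (Noxa) rose alike, by 1.25 and 1.32. Core histone genes, many of them near-identical copies and so uncertain, had a median of 0.36 over 52 tested (80 listed). At an unadjusted p under 0.05, 5 were above 0 (9.62%, against 6.78% of all genes) and 0 below 0 (0%, against 6.45%). H2afx was at 1.03 (SE 0.35) and H3f3b inside a 2-fold difference at 0.19 (95% interval -0.16 to 0.54).

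Large families had members on both sides of 0. Of 246 solute carriers tested (358 in the files) 25 were above 0 and 25 below 0 at an unadjusted p under 0.05, with a median of -0.07. That is 10.2% each, against 6.78% and 6.45% of all genes. Without d3ko replicate 2, 20 and 12 of 244 passed, against 4.85% and 3.25% of all genes. Slc16a1, a lactate transporter, had 57.6 and 67.3 TPM in d0con, 61.1 and 59.2 in d0ko, 745, 386 and 1036 in d3con and 139, 159 and 92.1 in d3ko (interaction -2.38, SE 0.51, 95% interval -3.54 to -1.23, edgeR adjusted p = 0.153). Slc7a8, an amino acid transporter, and Slc31a2, a copper transporter, rose in control cells with interactions of -3.98 (SE 0.87) and -1.18 (SE 0.25). The zinc transporter Slc39a14, the nucleoside transporter Slc28a1 and the inositol transporter Slc5a11 fell in control cells (interactions 2.10 with SE 0.50, 4.27 with SE 1.12 and 5.04 with SE 1.46), and the copper importer Slc31a1, the bicarbonate transporter Slc4a7 and the zinc transporter Slc30a9 rose alike, by 1.95, 1.51 and 1.36 in control and 1.51, 1.80 and 1.37 in ko cells. Of 332 Zfp genes tested (354 in the files) 118 had an interval inside -1 to 1 (35.5%, against 35.1% of all genes). At an unadjusted p under 0.05, 16 were above 0 (4.82%, against 6.78%) and 11 below 0 (3.31%, against 6.45%), and the median was -0.02. Zfp58 and Zfp703 rose in control cells (interactions -1.47 with SE 0.36 and -3.15 with SE 0.88), and Zfp42 (Rex1), a stem cell marker, had 482 and 532 TPM in d0con, 575 and 568 in d0ko, 11.2, 10.9 and 10.3 in d3con and 309, 40.0 and 400.1 in d3ko (interaction 4.40 with SE 1.0). Zfp600 and Zfp936 were above 0 too, but have close copies and are uncertain. Of 24 imprinted genes tested outside the Dlk1 to Dio3 locus (25 listed), 9 rose in control and 6 in ko cells, with a median of -0.54 (-0.64 with genes of 3 or fewer reads at that bound, and -0.78 without d3ko replicate 1 to -0.24 without d3ko replicate 3 with 1 library left out). Grb10, an inhibitor of insulin signalling, had 22.5 and 35.1 TPM in d0con, 32.6 and 29 in d0ko, 833, 412 and 1323 in d3con and 128, 220.5 and 113 in d3ko and rose in both, with an interaction of -2.53 (SE 0.63, 95% interval -3.95 to -1.11, edgeR adjusted p = 0.17), and Ascl2, a factor of trophoblast and intestine, had an interaction of -2.93 (SE 0.72). Impact changed by -0.19 and -0.15. Within the Dlk1 to Dio3 locus the noncoding RNAs Meg3 and Rian were low in ko cells at day 0 already, and Meg3 had 36 and 44 TPM in d0con, 0.31 and 2.21 in d0ko, 145, 87.8 and 154 in d3con and 2.01, 0.98 and 0.07 in d3ko, and an interaction of -2.08 (95% interval -4.78 to 0.62). Car4, a membrane-bound carbonic anhydrase, rose in both genotypes, by 7.17 and 4.33, with 2113, 805 and 2154 TPM in d3con and 405, 492 and 48.1 in d3ko. Of 16 early cleavage-stage genes 6 were tested, and the initiation factor Eif1a changed by -0.66 and -0.66.

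Markers of feeder fibroblasts also had interactions below 0. Of 18 feeder fibroblast markers tested (21 listed), 9 rose in control and 4 in ko cells, the median interaction was -1.78 (-0.54 by limma on log2(TPM + 1) and -0.78 without d0ko replicate 2), and 5 were below 0 at an unadjusted p under 0.05 with 0 above (1 and 0 passed without d3ko replicate 2). Col1a2, a fibrillar collagen, had 2.54 and 2.42 TPM in d0con, 7.55 and 24.9 in d0ko, 74.1, 12.8 and 47.7 in d3con and 60.7, 25.4 and 60.2 in d3ko, and Dcn (decorin) had 1.18 and 0.99 TPM in d0con, 4.41 and 17.4 in d0ko, 2.6, 0.59 and 5.09 in d3con and 3.99, 1.38 and 0.57 in d3ko. In both genes d0ko lay above d0con, while the d3ko and d3con levels overlapped, and the interactions were -2.56 (SE 1.04) and -3.75 (SE 1.42). Acta2 (smooth muscle actin) had an interaction of -4.92 (SE 1.38). The part of feeder RNA in the values of other extracellular genes was not tested. Of 18 extraembryonic endoderm markers tested (21 listed), 11 rose in control and 7 in ko cells and the median interaction was -0.96 (-0.36 without d0ko replicate 2). Of the defining markers Afp was at 0 in all 10 libraries, Ttr at 0 to 0.24 TPM and Sox7 had 2.41, 0.98 and 0.24 TPM in d3con and 12.2, 0.31 and 2.05 in d3ko.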

How the data were processed

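RNA of sorted cells was amplified and sequenced with SMART-Seq v4, which does not keep strand, so reads of overlapping or antisense genes cannot be told apart. The authors aligned reads with STAR to mm10 (GRCm38) and used RSEM to make expected counts per gene and TPM, deposited for each library; versions are not given in the sources used here. Read length was inferred from RSEM's gene length less its effective length. It came to 75 bases in replicate 1 of d3con and d3ko and 50 in the others. The paper gives 50-base single-end reads for these libraries, and the difference was not resolved.

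Expected counts, rounded, were tested across all genes with edgeR 4.0.16 (quasi-likelihood F test, TMM, R 4.3.3) at 1 CPM or more in at least 2 of the 10 libraries, with Benjamini-Hochberg adjustment. A gene was called at an adjusted p under 0.05 and a log2 value beyond 1 in size. DESeq2 1.42.0 and limma 3.58.1 were alternatives, and the fit was tested on simulated data. The change of a library is its log2 CPM less the mean of its genotype's day 0 libraries. Positions are RefSeq's. Named genes were Foxa2, the 12 of smallest p in each direction, up to 3 a direction and up to 3 alike genes in each of 43 lists, the 10 of largest shared rise and of largest shared fall, and the markers; a few of these genes are not reported here. Members and lists were chosen with earlier results of these data known. The authors tested pairs of groups with DESeq2, a test of other contrasts than the interaction.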

Additional observations from a re-analysis of the deposited data

Results flagged for a closer look

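In 17 named genes all 3 d3con libraries lay on one side of every d0con library, and all 3 d3ko libraries lay on the other side of every d0ko library. The interaction of each was tested, and with all 10 libraries it did not pass adjustment over all genes (edgeR). Over all genes tested, 112 (0.806%) were above day 0 in every control library and below it in every ko library, and 46 (0.331%) had the reverse pattern. No group holds more than 3 libraries, so single libraries were not screened for outlying values.

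Higher in control and lower in ko libraries were 13 genes. The epithelial genes Krt7, Cldn6, Ovol2, Esrp1 and Cdh1 had interactions of -4.41, -2.95, -2.73, -1.01 and -0.99. The secreted proteins Spink3, Proc, Trh and Timp3 had -10.19, -9.33, -2.53 and -2.76, where that of Proc is a fitted value for a gene with 3 or fewer reads in a group and no measure of size. The regulators Dnmt3b, Sall4, Ascl2 and Hdac6 had -2.02, -1.27, -2.93 and -1.99. Lower in control and higher in ko libraries were 4 genes, the cell cycle factor E2f1 (1.08), the respiratory subunit Ndufb5 (0.46), the histone gene Hist1h3d (2.08), which has near-identical copies, and the calcium-binding protein Cabp1 (3.21).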

How the results depend on the processing

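None of the 139 named differences reversed under the 25 alternatives (3072 of 3473 values stayed on the same side of the threshold and 401 newly passed). These genes were picked for small p in the same libraries, most of which the alternatives share. Among the alternatives, edgeR's planned legacy = TRUE is the main fit itself. Kept signs are therefore no independent support. For genes named for their interval, 1268 of 1425 intervals kept their place inside or not inside -1 to 1. Of the list medians, 990 of 1100 moved by less than an error taken from the spread of the library medians (0.1 for all genes tested). The number of genes called for the interaction depended on the method (higher/lower, 0/0 in edgeR): 299/266 with DESeq2, 23/55 with all 14 libraries, 0/16 without the filter, 0/12 and 0/5 with limma on log2(TPM + 1) and log2(TPM + 0.1), 0/3 with a clone block, and 0/1 with RLE size factors, with a mean count of at least 50 or with edgeR's legacy = FALSE, an alternative chosen after seeing the data because the planned legacy = TRUE is the default used. At an unadjusted p under 0.01 there were 284/318 genes, and on log2(TPM + 1) 572 above 0 at an unadjusted p under 0.05 and 1324 lower in d3con than d0con; the causes were not tested. Leaving out libraries, interaction calls ranged from 0 to 942 higher and 0 to 686 lower. They were 670/448 without d3ko replicate 2, 942/686 without replicate 2 in d3con and d3ko together, 27/101 without d3con replicate 2, 0/1 without d3ko replicate 3 and 0/0 without any other library. Unadjusted counts ranged from 473 to 2198 above 0 and 518 to 1858 below: 1847/1682 without d3ko replicate 2, 2198/1858 without both replicates 2, 473/518 and 528/698 without d0ko replicates 2 and 1, 537/564 without d0con replicate 1, and 557 above 0 without both replicates 1. Genes higher in d3con than d0con ranged from 1862 (without d0con replicate 2; 1869 without replicate 1) to 3011 with 1 library left out, genes higher and lower in d3ko than d0ko from 344 and 323 (without d0ko replicate 1; 554 and 420 without replicate 2) to 1809 and 1051 (without d3ko replicate 3), where a lone day 0 library is assumed to vary like the other groups. With the replicate number as a replicate block, edgeR called 0/0 genes, with 915/956 unadjusted, 5022 intervals inside -1 to 1, 2885/2125 for d3con against d0con and 1581/873 for d3ko against d0ko. The same-numbered d3con and d3ko libraries had correlated deviations of 0.54, 0.29 and -0.01, those of day 0 0.11, so the numbers are not taken as pairs. Setting genes of 3 or fewer reads in a group to the floor of 3 reads moved 5 of 43 list medians by over 0.1. Besides those given with the results, the medians of the SWI/SNF, NuRD and Polycomb, ribosomal protein, endoplasmic reticulum, glycolysis, glutathione peroxidase, Zfp, Hox and early cleavage lists changed sign under at least 1 alternative.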
